A study of Mus musculus and Rattus norvegicus with 28 samples.

Results

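The genes examined here were 10 transcriptional regulators of cardiac energy metabolism. They were chosen by name for what they are known to do, with earlier results of these data known. They comprise the coactivators Ppargc1a and Ppargc1b, the estrogen-related receptors Esrra, Esrrb and Esrrg, the peroxisome proliferator-activated receptors Ppara, Ppard and Pparg, the retinoid X receptor Rxra and the nuclear respiratory factor Nrf1. All 10 were found by symbol among the 55450 genes of the mouse expression files and among the 32623 genes of the rat files. Each passed the expression filter, which asked for an FPKM of 1 or more in 2 of the 8 mouse libraries or 3 of the 6 rat libraries and left 13979 mouse and 13625 rat genes. Ppara passed it in mouse only through the 2 E18.5 libraries, where it was highest, so a difference from later time points was built into its selection.

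PPARs are nuclear receptors that are switched on by fatty acids and bind DNA as partners of RXR at genes of fatty acid uptake and oxidation. ERRs are orphan nuclear receptors that bind at genes of the citric acid cycle, the electron transport chain and ATP synthesis. PGC1α and PGC1β, the products of Ppargc1a and Ppargc1b, do not bind DNA themselves but dock onto PPARs, ERRs and NRF1 and raise the transcription of their targets. In the heart these factors are known for the switch from glucose and lactate to fatty acids as fuel around birth, and NRF1 for its role in making mitochondrial components.

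The mouse libraries came from left ventricular cardiomyocytes of C57BL/6 mice, untreated, at embryonic day 18.5 (E18.5) and postnatal days 1, 3 and 7 (P1, P3 and P7), with 2 RNA-seq and 2 ATAC-seq libraries per time point. The cells were freed with trypsin and collagenase, and cells that attach quickly to plastic were removed by pre-plating. The rat libraries came from P1 Sprague Dawley ventricular cardiomyocytes that were plated, given either the solvent DMSO or 100 nM of TSA (trichostatin A, an inhibitor of histone deacetylases) 1 day later, and sequenced as 3 RNA-seq libraries per group. Whether a library pooled several animals is not given in the sources used here, so the p values measure the spread between libraries, which may in part be technical. FPKM, the unit of all levels below, is read fragments per kilobase of transcript, scaled to the size of the library and summed over the transcripts of a gene.

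The RNA-seq libraries held 29.3 to 37.5 M aligned reads in mouse and 28.2 to 38.5 M in rat. The summed FPKM of 12 cardiomyocyte markers was 26412 and 33934 at E18.5, then 12903 and 21220 at P1, then 7662 and 8692 at P3, then 944 and 2182 at P7, and all 12 fell from E18.5 to P7 by limma. The 10 fibroblast markers summed to 448 and 459 at E18.5 and 2943 and 3669 at P7, and all 10 rose. Erythroid markers summed to 29046 and 35395 at E18.5 and to at most 41.0 later. In rat, both libraries numbered 3 stood apart, with rank correlations of 0.951 to 0.965 to the others of their group against 0.985 and 0.986 between the remaining pair. Markers of smooth muscle and pericytes summed to 2374 and 1606 FPKM in these 2 rat libraries and to 631 to 957 in the other 4.

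The promoters of 5 regulators are shown first, because they hold transcript starts, and some of the peaks, that are described later. Each window runs from 250 bases before a transcript start to 50 bases into the transcript, 5′ to 3′ on the strand of the gene, on mouse build GRCm38 (mm10). In the first pair of windows, taken from the RefSeq promoters of GRCm38.p6, capitals mark the letters GCATGCGC, the core of the site that NRF1 is known to bind, found on either strand. In the Ppara window the letters occur on both strands and overlap. Of the 32851 RefSeq promoter windows, 2.71% held these letters.
Esrra, chr19:6921759-6922058, minus strand: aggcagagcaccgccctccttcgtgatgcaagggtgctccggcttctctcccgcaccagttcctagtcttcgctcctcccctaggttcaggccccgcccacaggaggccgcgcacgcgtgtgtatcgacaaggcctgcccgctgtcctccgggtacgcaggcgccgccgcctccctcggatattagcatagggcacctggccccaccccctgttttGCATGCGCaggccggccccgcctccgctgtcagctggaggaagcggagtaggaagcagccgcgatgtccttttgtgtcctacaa
Ppara, chr15:85735526-85735825, plus strand: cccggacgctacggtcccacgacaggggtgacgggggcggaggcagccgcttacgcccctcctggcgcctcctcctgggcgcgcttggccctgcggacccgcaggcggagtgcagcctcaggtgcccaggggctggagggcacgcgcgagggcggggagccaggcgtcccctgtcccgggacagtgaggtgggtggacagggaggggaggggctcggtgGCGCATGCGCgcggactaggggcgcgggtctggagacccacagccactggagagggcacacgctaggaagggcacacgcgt
Ppargc1a and Esrrg are shown as 2 of the genes called lower and Ppard as the one called higher, and here the windows were placed on the starts that the expression files use and capitals mark CpG dinucleotides.
Ppargc1a, chr5:51553873-51554172, minus strand: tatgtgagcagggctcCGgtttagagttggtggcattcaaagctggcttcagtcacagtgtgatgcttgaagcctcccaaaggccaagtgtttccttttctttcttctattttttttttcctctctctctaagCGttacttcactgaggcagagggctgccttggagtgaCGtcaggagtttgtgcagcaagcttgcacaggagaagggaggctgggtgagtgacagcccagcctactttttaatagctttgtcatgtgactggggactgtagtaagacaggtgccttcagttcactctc
Ppard, chr17:28232450-28232749, plus strand: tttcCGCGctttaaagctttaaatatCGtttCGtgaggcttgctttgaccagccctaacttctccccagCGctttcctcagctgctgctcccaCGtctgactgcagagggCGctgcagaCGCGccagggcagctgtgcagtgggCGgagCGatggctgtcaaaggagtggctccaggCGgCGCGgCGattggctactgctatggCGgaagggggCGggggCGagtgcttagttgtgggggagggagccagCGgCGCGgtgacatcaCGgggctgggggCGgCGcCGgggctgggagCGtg
Esrrg, upstream start, chr1:187608779-187609078, plus strand: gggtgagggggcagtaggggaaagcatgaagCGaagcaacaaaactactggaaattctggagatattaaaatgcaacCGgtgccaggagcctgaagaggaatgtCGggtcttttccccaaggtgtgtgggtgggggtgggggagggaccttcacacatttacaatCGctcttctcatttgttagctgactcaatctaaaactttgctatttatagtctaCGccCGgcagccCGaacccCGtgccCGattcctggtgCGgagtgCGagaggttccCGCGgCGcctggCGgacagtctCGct
Esrrg, downstream start, chr1:187997577-187997876, plus strand: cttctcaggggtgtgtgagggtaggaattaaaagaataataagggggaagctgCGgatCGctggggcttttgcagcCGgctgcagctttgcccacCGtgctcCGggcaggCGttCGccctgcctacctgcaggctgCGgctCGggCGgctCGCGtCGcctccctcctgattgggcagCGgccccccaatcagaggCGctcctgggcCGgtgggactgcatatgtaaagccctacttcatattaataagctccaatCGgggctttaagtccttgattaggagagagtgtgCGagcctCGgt
The Ppargc1a window held 3 CpG dinucleotides, the Ppard window 26, and the Esrrg windows 16 upstream and 19 downstream, beside a median of 7 over all RefSeq windows.

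RefSeq windows were found for 9 of the 10 genes, several of them with more than 1 window. The ERR element TCAAGGTCA, searched on both strands, was in none of these windows and in 0.423% of all RefSeq windows. The core AGGTCA, which nuclear receptors share and which is part of the ERR element, was in 1 of 2 Rxra windows and in 2 of 3 Pparg windows, and in 16.3% of all windows. A direct repeat of AGGTCA with 1 base between the copies, the arrangement that PPAR and RXR are known to bind together, was in no window of these genes and in 0.0396% of all windows. These are matches of letters within the windows and show no binding.

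Both coactivators were lower at P3 and P7 than at E18.5. Ppargc1a (ENSMUSG00000029167.13), on the minus strand of chromosome 5 from 51454250 to 51567726, was at 10.3 and 7.91 FPKM at E18.5, then 4.16 and 7.19 at P1, then 2.81 and 3.61 at P3, then 0.666 and 0.224 at P7. Every library of a later time point was below both E18.5 libraries, and both P7 libraries were below all others. Its mean was 2.84-fold lower at P3 than at E18.5 and 20.5-fold lower at P7. On the log2(FPKM + 1) scale used for testing, which understates the change of low genes, the difference was -1.26 ± 0.27 (SE) at P3, with an adjusted p of 0.00574 by limma, and -2.82 ± 0.27 at P7, with an adjusted p of 8.36e-05.

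Ppargc1b (ENSMUSG00000033871.14), on chromosome 18, had 4.74 and 4.65 FPKM at E18.5, then 2.53 and 3.32 at P1, then 1.19 and 1.78 at P3, then 0.736 and 0.213 at P7. Both libraries of each time point lay below both of the time point before. The log2 difference from E18.5 was -1.21 ± 0.22 at P3, with an adjusted p of 0.00305 by limma, and -1.97 ± 0.22 at P7, with an adjusted p of 0.000192. The mean was 9.90-fold lower at P7 than at E18.5. At P1 neither coactivator passed the test, with log2 differences of -0.63 ± 0.27 for Ppargc1a and -0.54 ± 0.22 for Ppargc1b.

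**Figure D1:**
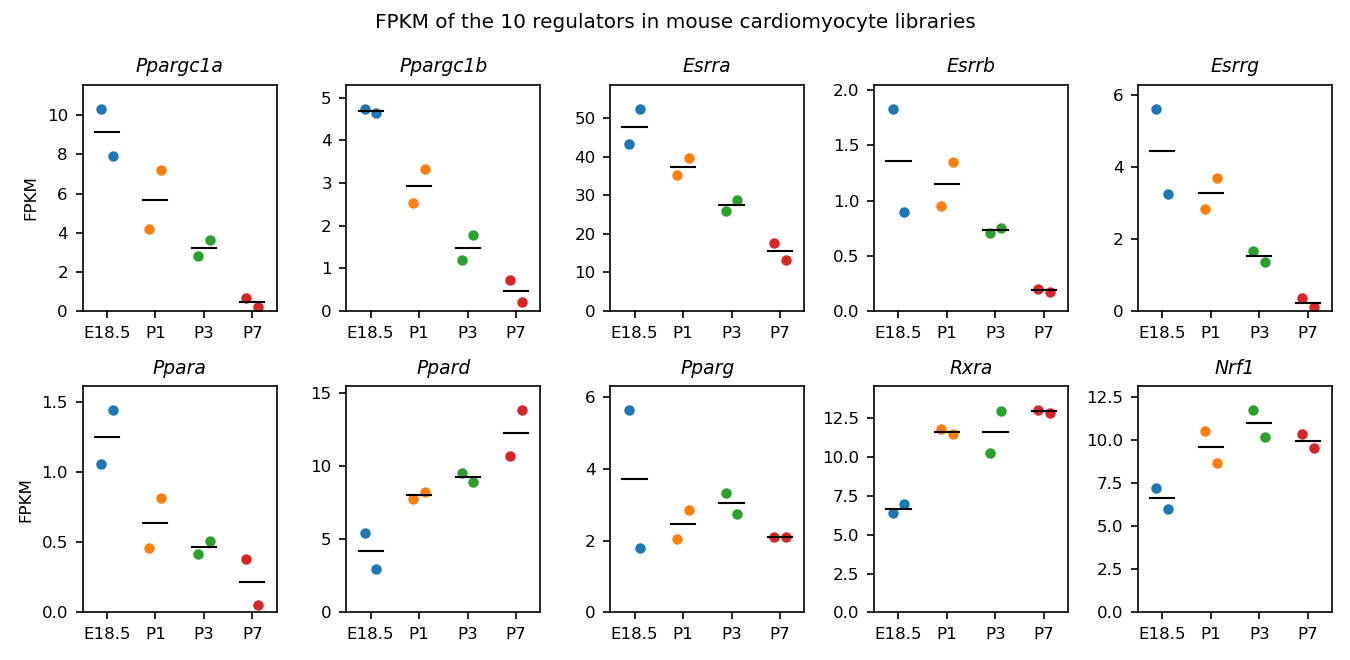
FPKM (vertical axes, each from 0) of the 10 regulators in the 8 mouse libraries by time point. Points are single libraries and black lines are means of 2. Ppargc1a, Ppargc1b, Esrra and Esrrg fell to their lowest levels in both P7 libraries, and Ppard was highest there.

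Among the estrogen-related receptors, Esrra (ENSMUSG00000024955.14; chromosome 19, 6910977 to 6921813, minus strand) was the most abundant of the 10 genes in every group of libraries. It was at 43.2 and 52.5 FPKM at E18.5, then 35.3 and 39.7 at P1, then 26.1 and 28.8 at P3, then 17.6 and 13.3 at P7. The libraries of successive time points did not overlap. The log2 difference from E18.5 was -0.78 ± 0.17 at P3, with an adjusted p of 0.00621 by limma but under the fold limit of 1, and -1.58 ± 0.17 at P7, with an adjusted p of 0.000142. This was a 3.10-fold lower mean at P7.

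Esrrg (ENSMUSG00000026610.13; chromosome 1, 187608791 to 188214885, plus strand), the receptor best known from heart and other oxidative tissues, was at 5.63 and 3.25 FPKM at E18.5, then 2.84 and 3.71 at P1, then 1.68 and 1.36 at P3, then 0.363 and 0.0982 at P7. The P1 and E18.5 libraries overlapped, and the P3 and P7 libraries were below both. The log2 difference from E18.5 was -1.08 ± 0.25 at P3, with an adjusted p of 0.00766 by limma, and -2.12 ± 0.25 at P7, with an adjusted p of 0.00021. The P3 call was lost without E18.5 replicate 1 or without P3 replicate 2, with a lowest fall of 0.76 on the log2 scale. At P7 the mean was 19.3-fold lower than at E18.5.

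Esrrb (ENSMUSG00000021255.17; chromosome 12, 86361117 to 86521628, plus strand) was low throughout, at 1.83 and 0.892 FPKM at E18.5, then 0.948 and 1.35 at P1, then 0.702 and 0.755 at P3, then 0.199 and 0.173 at P7. The P7 libraries were the lowest. Esrrb passed the expression filter only through E18.5 replicate 1 and P1 replicate 2. A lower level at P3 and P7 was thus partly built into its selection. The log2 difference between P7 and E18.5 was -0.96 ± 0.22, with an adjusted p of 0.00595 by limma, just under the fold limit. Esrrb was called with a pseudocount of 0.1, at -2.28, with TPM, at -1.27, with size factors, at -1.05, with limma-voom, at -3.20, and without E18.5 replicate 2, at -1.26.

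Of the PPARs, Ppard was called higher by the test used throughout, limma on log2(FPKM + 1) with all libraries, and Ppara and Pparg were not called by it. Ppara (ENSMUSG00000022383.13; chromosome 15, 85734983 to 85802819, plus strand), the main PPAR of fatty acid oxidation in the adult heart, was at 1.06 and 1.44 FPKM at E18.5, then 0.457 and 0.818 at P1, then 0.420 and 0.509 at P3, then 0.378 and 0.0557 at P7. Both E18.5 libraries lay above all 6 others. At P7 the level rested on an estimated 17.3 and 6.82 reads. In FPKM, Ppara passed the expression filter only through the E18.5 libraries, so a fall from E18.5 was partly built into its selection. The log2 difference between P7 and E18.5 was -0.89 ± 0.20, with an adjusted p of 0.00616 by limma and under the fold limit. At P7, Ppara was called with a pseudocount of 0.1, at -2.29, with TPM, at -1.20, with limma-voom, at -3.20, without E18.5 replicate 1, at -1.02, and without P7 replicate 1, at -1.09. At P3 it was called with limma-voom, at -1.41.

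Ppard (ENSMUSG00000002250.16; chromosome 17, 28232700 to 28301474, plus strand), which is expressed in many cell types, was the only member called higher with all libraries on log2(FPKM + 1). It was at 5.45 and 2.95 FPKM at E18.5, then 7.80 and 8.25 at P1, then 9.56 and 8.96 at P3, then 10.7 and 13.8 at P7. Every postnatal library was above both E18.5 libraries. The log2 difference from E18.5 was 0.84 ± 0.24 at P1, with an adjusted p of 0.0235 by limma but under the fold limit, 1.02 ± 0.24 at P3, with an adjusted p of 0.00831, and 1.39 ± 0.24 at P7, with an adjusted p of 0.00156. At P1 it was called with TPM, at 1.13, with limma-voom, at 1.19, and without E18.5 replicate 1, at 1.19. The P3 call was lost with size factors, at 0.84, and without E18.5 replicate 2 or P3 replicate 1, with a lowest difference of 0.67. At P7 the mean was 2.93-fold that of E18.5.

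Pparg (ENSMUSG00000000440.12; chromosome 6, 115360951 to 115490399, plus strand), the PPAR of fat cell formation, was at 5.63 and 1.78 FPKM at E18.5, then 2.06 and 2.86 at P1, then 3.33 and 2.75 at P3, then 2.11 and 2.09 at P7. The E18.5 libraries spanned all other values, and no comparison with all libraries passed the test. The P7 difference from E18.5 was -0.47 ± 0.36 on the log2 scale. It was 0.16 without E18.5 replicate 1, and -1.10 and called without E18.5 replicate 2, with an adjusted p of 0.00697 by limma. The 10 endothelial markers summed to 762 FPKM in E18.5 replicate 1 and 462 in replicate 2. The 8 adipocyte markers summed to 273 and 183 FPKM in the same 2 libraries, to between 21.7 and 29.98 at P1, between 31.0 and 45.5 at P3 and between 77.7 and 99.3 at P7. Of these markers 3 to 6 were at 0 in each mouse library, Lep in all 8, and 6 were under 1 FPKM in each. The adipocyte sums thus rested on few genes. Fabp4 was in both the adipocyte and the endothelial list, so the sums of the lists are not independent. The part of these cell types in the Pparg levels was not tested.

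Rxra (ENSMUSG00000015846.14; chromosome 2, 27676440 to 27762957, plus strand), the partner with which PPARs bind DNA, was at 6.402 and 6.964 FPKM at E18.5, then 11.8 and 11.5 at P1, then 10.3 and 12.99 at P3, then 13.01 and 12.86 at P7. All 6 postnatal libraries were above both E18.5 libraries, and the postnatal time points lay close together. The log2 difference from E18.5 was 0.72 ± 0.15 at P1, with an adjusted p of 0.00676 by limma, and 0.86 ± 0.15 at P7, with an adjusted p of 0.00173, both under the fold limit. With TPM the P7 difference was 1.16 and Rxra was called.

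Nrf1 (ENSMUSG00000058440.14; chromosome 6, 30047988 to 30153458, plus strand) was at 7.22 and 6.03 FPKM at E18.5, then 10.6 and 8.70 at P1, then 11.7 and 10.2 at P3, then 10.3 and 9.54 at P7. It too lay higher in each postnatal library than at E18.5. The log2 difference from E18.5 was 0.65 ± 0.16 at P3, with an adjusted p of 0.0114 by limma, and 0.52 ± 0.16 at P7, with an adjusted p of 0.0251, both under the fold limit. With size factors the P7 difference was 0.36, with an adjusted p of 0.0852 by limma.

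By limma with Benjamini-Hochberg adjustment, with calls made where the adjusted p was below 0.05 and the log2 difference above 1 in size, 0 of the 10 regulators were called between P1 and E18.5, where 16.2% of all tested genes were called. At P1, 5 of the 10 had an unadjusted p under 0.05, beside 7012 of all 13979 genes. There, limma-voom on estimated reads called 1, Ppard, beside 3265 of all 13979 genes. At P3, 1 of 10 was called higher and 3 lower, beside 13.0% and 8.88% of all genes. At P7, 1 was higher and 4 were lower, beside 15.4% and 12.3%. Between P7 and P1, Ppargc1a, Ppargc1b, Esrra and Esrrg were called lower, 4 of 10 beside 5.46% of all genes, with log2 differences of -2.19, -1.43, -1.24 and -1.80. The 4 comparisons share libraries, and their counts are not independent of each other. Statements that libraries did not overlap describe single genes, and the share of all genes without overlap is not given here.

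The median log2 difference of all genes from E18.5 was itself 0.15, 0.16 and 0.14 for P1, P3 and P7 on FPKM, so a gene at 0 lay that much below the median gene. With size factors these medians were -0.01, -0.02 and -0.01, and with TPM 0.33, 0.36 and 0.35. Relative to these medians the called falls were larger and the rise of Ppard smaller, and no called member changed direction under either scaling. Of all genes called at P7, 55.7% were higher on FPKM, 45.5% with size factors and 65.7% with TPM. Of those called at P1, 62.5% were higher on FPKM, 45.7% with size factors and 74.3% with TPM, and at P3 59.4%, 45.7% and 71.9%.

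**Figure D2:**
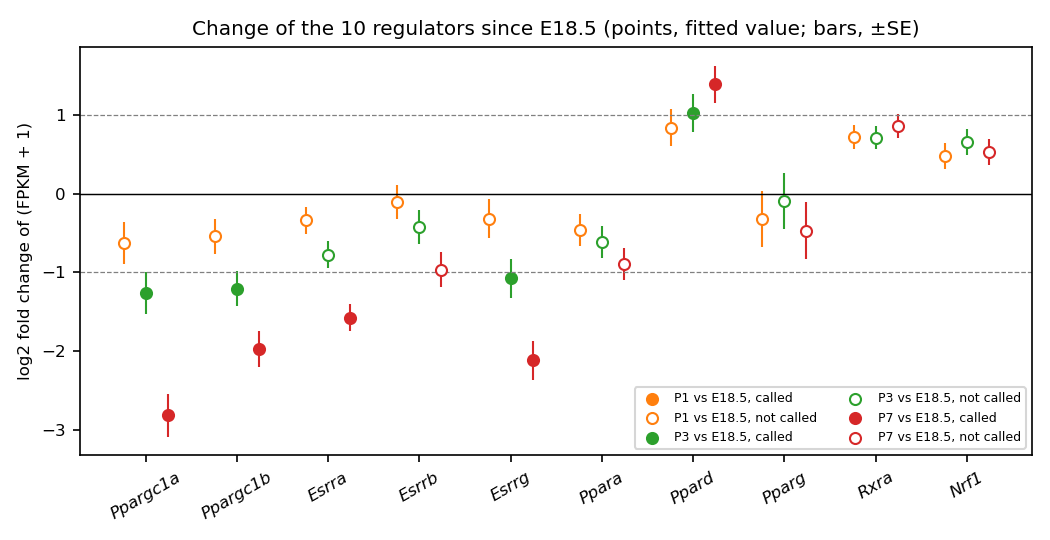
Log2 difference of FPKM + 1 from E18.5 (vertical axis) for the 10 regulators at P1, P3 and P7. Points are limma estimates and bars are SE. Filled points were called and open points were not. Dashed lines mark the fold limit. Ppargc1a had the lowest value at P7, -2.82, and Ppard the highest, 1.39.

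Markers of the cardiomyocyte fell in the same libraries as the regulators. The mean summed FPKM of the 12 cardiomyocyte markers was 1.77-fold lower at P1 than at E18.5, 3.69-fold lower at P3 and 19.3-fold lower at P7. The matching values were 1.61-fold, 2.84-fold and 20.5-fold for Ppargc1a and 1.36-fold, 2.92-fold and 19.3-fold for Esrrg. Ppargc1b was 1.61-fold, 3.17-fold and 9.90-fold lower, and Esrra 1.28-fold, 1.74-fold and 3.10-fold. Fibroblast markers summed to 7.29-fold of their E18.5 level at P7, smooth muscle and pericyte markers to 3.68-fold, macrophage markers to 2.53-fold and endothelial markers to 0.996-fold, beside 2.93-fold for Ppard. Within all but the fibroblast list, genes moved both ways. Of 8 smooth muscle and pericyte markers, 4 were called higher and 2 lower. Of 7 tested macrophage markers, 1 was higher and 1 lower, and of 10 endothelial markers, 2 and 2. In bulk libraries, fewer cells of a type and less RNA per cell cannot be told apart, and the part of cell makeup in the changes of the regulators was not tested.

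**Figure D3:**
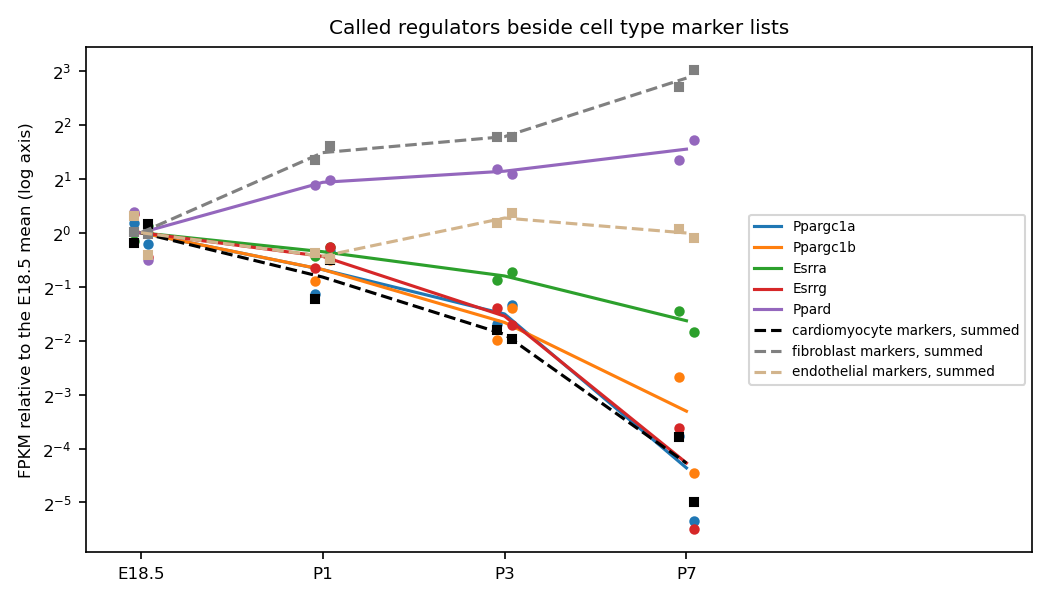
FPKM relative to the E18.5 mean (vertical log axis) by time point for the 5 called regulators (solid lines, circles) and for the summed markers of cardiomyocytes, fibroblasts and endothelial cells (dashed lines, squares). Symbols are single libraries and lines join means of 2. Ppargc1a and Esrrg lay close to the cardiomyocyte markers at P7, at 20.5-fold and 19.3-fold below E18.5 beside 19.3-fold.

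The order of the levels changed with age. At E18.5 it ran Esrra, Ppargc1a, Rxra, Nrf1, Ppargc1b, Esrrg, Ppard, Pparg, Esrrb and Ppara, and all neighbours from Ppargc1b downward overlapped, as did Rxra and Nrf1. At P7 it ran Esrra, Rxra, Ppard, Nrf1, Pparg, Ppargc1b, Ppargc1a, Esrrg, Ppara and Esrrb, with overlap between Rxra and Ppard and between all neighbours from Ppargc1b downward. Ppargc1a thus went from rank 2 to rank 7 and Ppard from rank 7 to rank 3. Esrra stayed first, and its mean went from 5.25-fold that of the next gene at E18.5 to 1.19-fold at P7.

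Across the 8 mouse libraries, the 3 genes whose log2 levels followed each called regulator most closely were picked from all 13979 tested genes by Pearson's r. For Ppargc1a they were 1110002E22Rik, Myo18a and Dsp, with r of 0.997, 0.996 and 0.995. For Esrra they were Casq2, Afg3l2 and Tmod1, with r of 0.997, 0.996 and 0.996. For Ppargc1b they were Rhot2, Slc29a2 and Trp53bp2, with r of 0.991, 0.991 and 0.989, and for Esrrg they were Lgr4, Prox1 and Xirp1, with r of 0.993, 0.989 and 0.988. For the rising Ppard they were Lix1l, Chst11 and Il1rl2, with r of 0.995, 0.995 and 0.993. The points share their time order and cell makeup, so any gene with a like trend scores highly, and the values are descriptions only.

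Genes on which these regulators act were examined as lists of known targets and partners. Of 30 PPAR target genes, 28 were tested, and 17 were lower at P1 than at E18.5 and 0 higher, beside 6.06% and 10.1% of all genes. At P7, 20 were lower and 3 higher, beside 12.3% and 15.4%. The median log2 difference of the list was -1.17 at P1 and -1.66 at P7, beside 0.15 and 0.14 over all genes. The largest falls at P7 were of Fabp3, which carries fatty acids in the cytosol, from 1346 to 58.7 FPKM, a log2 difference of -4.63, of Cpt1b, the muscle enzyme that admits fatty acids to mitochondria, at -4.26, and of Pdk4, the kinase that restrains pyruvate oxidation, at -3.20. The rises were of Angptl4, an inhibitor of lipoprotein lipase, from 8.496 to 86.2 FPKM, at 3.29, of the lipid droplet protein Plin2, at 1.97, and of Cpt1a, the liver-type counterpart of Cpt1b, at 1.19. The list thus held genes that moved in both directions.

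Of 30 ERR and PGC1 target genes, all were tested and 11 were lower at P1, 26 at P3 and 28 at P7, with 0 higher at any of these times. Of all genes 6.06%, 8.88% and 12.3% were lower, and 10.1%, 13.0% and 15.4% higher. The median log2 difference was -0.89 at P1 and -2.13 at P7. Of the 12 cardiomyocyte markers, 2 were called lower at P1, 10 at P3 and 12 at P7, with a median of -4.01 at P7. The part of cell makeup in the changes of the target lists was not tested. The largest falls at P7 were of Cox6a2, a muscle subunit of cytochrome c oxidase, from 831 to 22.7 FPKM, at -5.41, of the oxygen store myoglobin, Mb, at -4.23, and of Cox8b, at -4.21. Vegfa, the vascular growth factor, and Gyk, glycerol kinase, were the 2 not called, at 0.03 and -0.86, and were picked out after their values were seen. The count at P1 was 4 with TPM, 18 with size factors, 3 without E18.5 replicate 2 and 5 without P1 replicate 1.

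The list of 20 genes for the upkeep and transcription of mitochondrial DNA, protein import and fusion, which includes genes on which NRF1 is known to act, had 1 called lower at P1, beside 6.06% of all genes, and 3 at P7, beside 12.3%. These shares of genes called lower are near those of all genes. At P1 and at P7, 0 were called higher, beside 10.1% and 15.4% of all genes. The 3 at P7 were the fusion proteins Mfn2, at -1.90, and Mfn1, at -1.70, and the polymerase subunit Polg2, at -1.5. The median at P7 was -0.40, beside 0.14 over all genes. Of 30 partners and coregulators, 28 were tested, and 1 was higher and 4 lower at P1, beside 10.1% and 6.06% of all genes. At P7, 2 were higher, among them the receptor Nr2f2, at 1.16, and 7 were lower, beside 15.4% and 12.3%. The largest falls were of the deacetylase Sirt3, at -2.82, of Prkaa2, a catalytic subunit of the energy sensor AMPK, at -2.80, and of Sirt1, which deacetylates PGC1α, at -2.08.

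Histone deacetylase inhibition in rat cells left the 10 regulators uncalled, 0 of 10 beside 2.13% of all tested genes. By limma, 3 of the 10 had an unadjusted p under 0.05, beside 2699 of all 13625 genes, and limma-voom called 0 of them too. With the replicate number as a block, limma also called 0 of the 10. The exact permutation test of 3 against 3 libraries cannot give a two-sided p below 0.1. Ppargc1a was at 13.2, 12.5 and 7.38 FPKM with DMSO and 15.7, 15.9 and 23.7 with TSA. All 3 TSA libraries were above all DMSO libraries, and the difference was 0.71 ± 0.25 on the log2 scale, with an adjusted p of 0.179 by limma and an exact permutation p of 0.1. Without both libraries numbered 3, a setting chosen after the data were seen, it was 0.28.

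Esrra was at 54.8, 60.6 and 45.6 FPKM with DMSO and 67.1, 62.1 and 76.0 with TSA, a log2 difference of 0.35 ± 0.13, with an adjusted p of 0.214 by limma. Esrrb was at 2.07, 1.56 and 1.53 with DMSO and 2.55, 2.99 and 7.60 with TSA, a difference of 0.87 ± 0.34, with an adjusted p of 0.212 by limma. In both genes the groups did not overlap, each gave an exact permutation p of 0.1, and TSA replicate 3 was the highest. Without both libraries numbered 3 the differences were 0.16 and 0.43.

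For the other regulators the groups overlapped. Ppara was at 11.2, 12.4 and 5.48 FPKM with DMSO and 7.90, 10.2 and 15.0 with TSA, and its log2 difference was 0.19 ± 0.33 with all libraries and -0.36 without those numbered 3. Rxra was at 36.4, 35.3 and 18.4 with DMSO and 23.3, 26.4 and 16.6 with TSA, a difference of -0.39 ± 0.29. In both genes DMSO replicate 3 was the low one of its group. Ppard was between 16.9 and 20.02 FPKM in all 6 libraries, Esrrg between 13.2 and 17.2, Nrf1 between 6.499 and 8.41, Ppargc1b between 14.5 and 22.3, and Pparg between 0.338 and 2.20. Their log2 differences were 0.02 ± 0.10 for Ppard, 0.02 ± 0.13 for Esrrg, -0.07 ± 0.13 for Nrf1, -0.06 ± 0.16 for Ppargc1b and -0.38 ± 0.33 for Pparg. Pparg and Rxra were each lower with TSA in 3 of 3 same-numbered pairs. With the replicate number as a block their adjusted p by limma was 0.197 and 0.131.

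**Figure D4:**
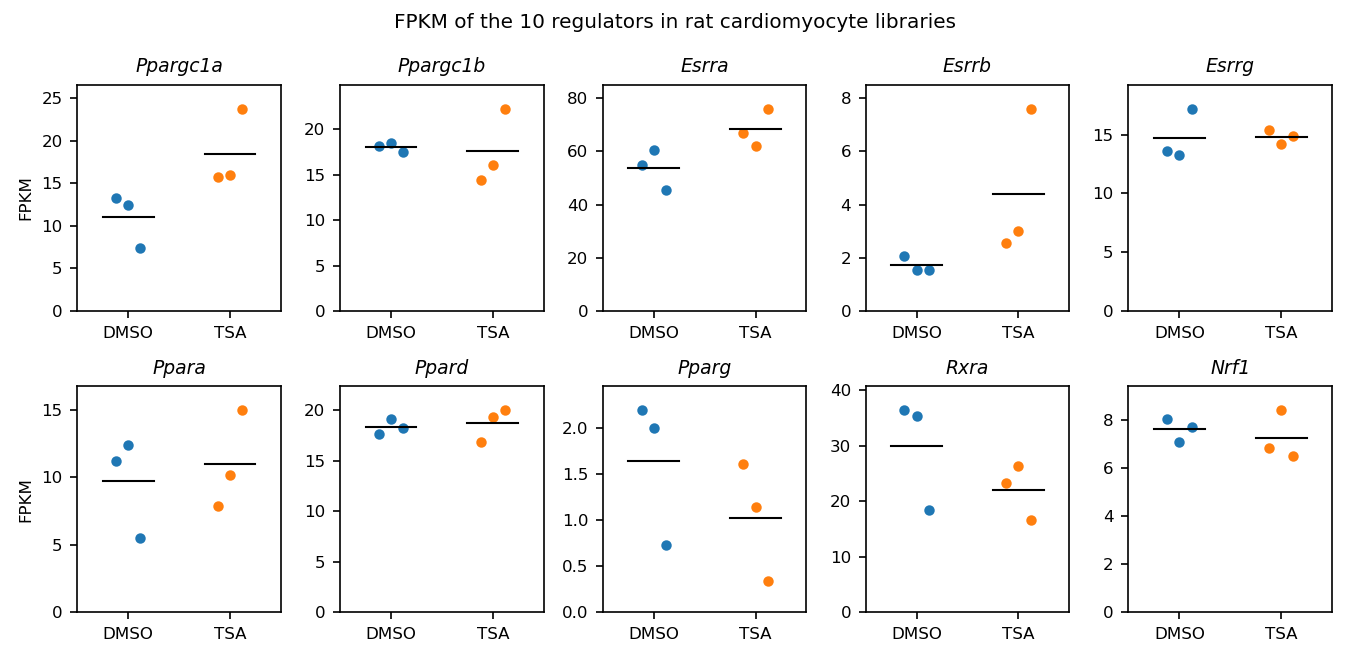
FPKM (vertical axes, each from 0) of the 10 regulators in rat cardiomyocytes with DMSO or TSA. Points are single libraries and black lines are means of 3. The groups did not overlap for Ppargc1a, Esrra and Esrrb, and none of the 10 was called. The share of all rat genes without overlap is not given here.

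The target lists did not pass the test with TSA either. Of the genes tested, 0 of 28 PPAR targets, 0 of 29 ERR and PGC1 targets, 0 of 19 mitochondrial genes and 0 of 28 partners were called by limma, with 4, 5, 2 and 2 at an unadjusted p under 0.05, and limma-voom called 0 in each. Of all 13625 rat genes, 2699 had an unadjusted p under 0.05, a larger share than in any of the 4 lists. With the replicate number as a block, 1 PPAR target was called higher. Without both libraries numbered 3, 2 PPAR targets were called higher, among them Angptl4, and Cox8b and Mb were called lower. Cox8b and Mb were also called without DMSO replicate 3 alone. These 3 genes were named after their values were seen.

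ATAC-seq marks DNA that a transposase can reach, and a peak within 2.5 kb of any annotated transcript start was counted as a promoter peak. Lists had lengths of 13149 and 14910 at E18.5, then 29281 and 19753 at P1, then 95257 and 52040 at P3, then 49113 and 35898 at P7, and a site without a peak and a shorter list cannot be told apart at E18.5 and P1. Both libraries held a promoter peak for 6 of the 10 regulators at E18.5, for 5 at P1, for 8 at P3 and for 9 at P7. The shares of the tested genes with such peaks were 56.7%, 41.3%, 87.5% and 83.2%. With the 13149 top-scoring peaks of each library the counts were 5, 3, 3 and 4, beside 54.1%, 31.5%, 37.3% and 45.2% of tested genes.

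Promoter peaks were in all 8 libraries for Ppara, Ppard and Esrra, 3 of 10 beside 36.6% of tested genes. The Esrra peaks covered the start shown above and had a fold enrichment over background of 8.61 and 8.28 at E18.5, then 10.4 and 7.85 at P1, then 7.11 and 11.03 at P3, then 6.31 and 7.92 at P7. They lay in the top 10 percent of every list, while Esrra transcript fell. The strongest Ppara peak had a fold enrichment of 4.96 and 5.55 at E18.5, then 5.47 and 3.32 at P1, then 8.71 and 9.24 at P3, then 6.87 and 7.32 at P7, and the Ppara transcript was lowest on average at P7. For Ppard the values ran from 3.84 to 8.72 with no order by age.

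Peaks near Ppargc1a were seen in 7 of 8 libraries, all but P1 replicate 2. A peak over the start in use, within chr5:51553734-51554026, was in E18.5 replicate 2, P1 replicate 1, P3 replicate 1 and P7 replicate 2. A second region, chr5:51551935-51553151, whose nearest edge lay 720 bases downstream of an annotated start, held a peak in both E18.5, both P3 and 1 library each of P1 and P7. At P7, with Ppargc1a transcript at 0.666 and 0.224 FPKM, each library thus held a single peak, at different places. Ppargc1b had a promoter peak in all libraries but those of P1.

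Esrrg used 2 starts, and the share of its FPKM between them differed among time points. The upstream start at 187609029 carried 76.4% and 70.0% of Esrrg FPKM at E18.5, then 0.8% and 1.1% at P1, then 13.2% and 61.3% at P3 and 0.0% in both P7 libraries. The downstream start at 187997827 carried 17.8% and 23.5% at E18.5, then 98.0% and 98.9% at P1, then 86.8% and 38.7% at P3 and 100.0% at P7. The P3 libraries disagreed, the P7 shares rested on 0.363 and 0.0982 FPKM, and StringTie shares reads among transcripts by estimate. Peaks lay at the downstream start in 6 of 8 libraries, both of E18.5 included, and just downstream of the upstream start in 4, E18.5 replicate 1, P3 replicate 1 and both of P7. The presence of a peak and the share of FPKM at a start therefore did not go together at P7.

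The remaining genes used mainly 1 start, with the exception of Nrf1 and Esrrb. For Ppargc1a the start shown above carried 99.9% of FPKM over the 8 libraries, for Esrra 98.97% lay within 200 bases of the start shown, and for Ppard 93.1%. Pparg was transcribed mostly from the start at 115360951, with 76.9%, and only 6.397% came from the start at 115422066. Rxra had 97.3% at 27677201, but its most recurrent peaks, in 6 libraries, lay near 27740201, where a transcript start is annotated and little of the FPKM fell. Peaks nearer 27677201 were found in both P3 libraries and in P7 replicate 2. Nrf1 had 56.2% at its first start, 12.5% at 30089889 and 30.7% at 30116115, and a peak over the first start in 7 libraries. Esrrb had a single promoter peak, in P7 replicate 1, with a fold enrichment of 3.14.

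**Figure D5:**
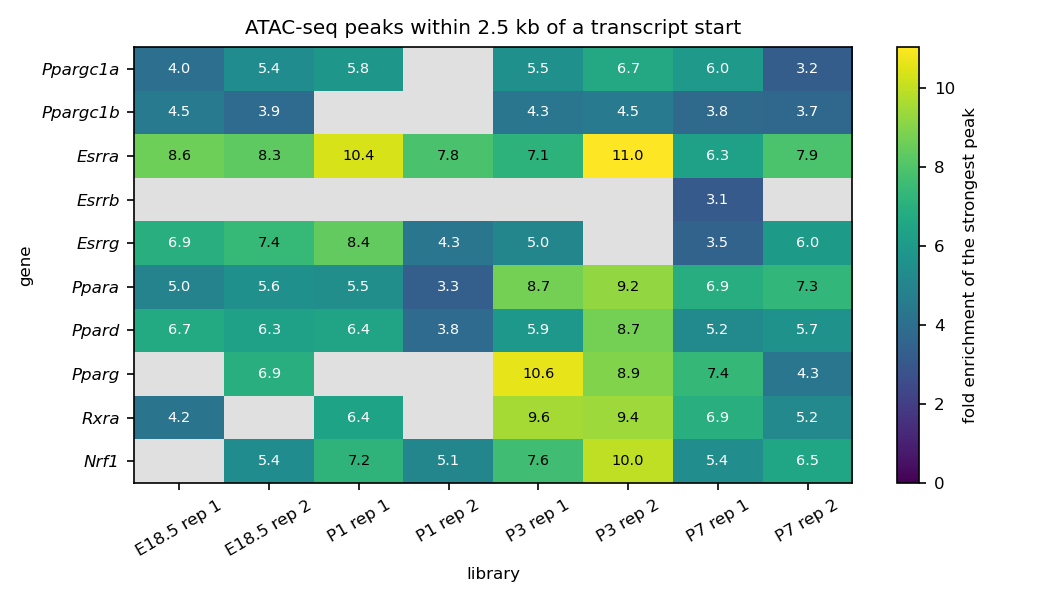
Fold enrichment of the strongest ATAC-seq peak within 2.5 kb of a transcript start (colour and printed number) for the 10 regulators (rows) in the 8 libraries (columns). Grey cells had no such peak. Ppara, Ppard and Esrra had a peak in all 8 libraries and Esrrb in 1.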

How the data were processed

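RNA-seq was available for 8 mouse and 6 rat libraries and ATAC-seq peak lists for 8 mouse libraries, and the 6 HiChIP samples of the series were not analysed here. Groups were taken from the sample labels. The 10 genes and all gene lists were chosen with earlier results of these data known. Per the labels and methods, the authors aligned RNA reads with HISAT2 2.1.0 and assembled transcript values with StringTie 1.3.5, while the headers of the rat files name another StringTie release than the labels. Per the file headers, the deposited transcript lines give coverage, FPKM and TPM, on mm10 for mouse and Rnor_6.0 for rat. ATAC reads were trimmed with cutadapt and aligned with Bowtie2, duplicates were removed with Picard, and peaks were called by the authors per library with MACS2. The deposited peak lists give a score, a fold enrichment ratio and the −log10 of p and q.

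Here, FPKM was summed over the transcripts of a gene, and genes that reached an FPKM of 1 in 2 or more mouse or 3 or more rat libraries were tested with limma 3.58.1 in R 4.3.3 on log2(FPKM + 1), with a mean trend and Benjamini-Hochberg adjustment over all tested genes. All mouse libraries shared 1 fit. Calls needed an adjusted p below 0.05 together with a log2 difference above 1 in size. The genes named were the 10 regulators, in each list the called genes with up to 3 of the largest rises and falls at P7 whose groups did not overlap, and for each called regulator the 3 tested genes most correlated with it over the 8 mouse libraries; others are marked as chosen after their values were seen. Some list genes are not reported here by name. Size factors were medians of ratios over the tested genes. Estimated reads for limma-voom were coverage times transcript length over a read length of 150 bases, and they are not counts from the aligner. The numbers of aligned reads were derived by dividing coverage by FPKM, and the precision of low genes is limited by them. Transcript starts within 200 bases were joined. The statistics were tested on simulated data. Deviations from the group means of rat libraries with the same number correlated at 0.224, 0.194 and 0.346 for the 3 pairs. DMSO replicate 2 and TSA replicate 1, which differ in number, reached 0.167. Libraries numbered 3 correlated negatively with those of other numbers. The labels do not say what a number marks, so whether the numbers pair the libraries is not known.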

Additional observations from a re-analysis of the deposited data

How the results depend on the processing

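Of 754 recomputed log2 differences of the 10 regulators, 702 kept direction and side of the threshold and 27 reversed. A further 20 became called and 5 lost their call. Some settings left the log2 difference unchanged by construction, so that only its adjusted p could move. Among them were the replicate block, a fit to only the time points compared, and leaving out a library from outside the comparison. The 702 thus include values whose direction could not change, and the share of such values was not counted. The form of the size factors, over tested genes, and the rat setting without both libraries numbered 3 were settled after the data were seen. Where a value changed, the cause was not tested unless fewer genes or peaks entered by construction.

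Among regulators called, P1 gave 1 with TPM and 1 with limma-voom, beside 3547 of 15908 and 3265 of 13979 tested genes. P7 gave 8 with TPM, beside 5293 of 15908 tested genes. With a mean FPKM of at least 5, which only 4 of the 10 reach, the counts were 1 for P3, 2 for P7 and 1 between P7 and P1. Of all 8944 genes at that mean, 2092, 2619 and 854 were called. Leaving out each library in turn gave 0 to 1 for P1, 3 to 4 for P3, 5 to 7 for P7, 4 between P7 and P1 and 0 with TSA. Of the ERR and PGC1 targets at P1, 4 were called with TPM, 18 with size factors and 3 to 14 with a library left out, and 0 to 2 with TSA. For the mitochondrial list at P1 the count was 0 with a mean of at least 5 and 0 to 1 with a library left out, and for the partners 3 to 5. Without both rat libraries numbered 3, 2 PPAR targets and 2 ERR and PGC1 targets were called.

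Some directions reversed at small values, and others, as of Pparg and Ppara, at larger ones. With TPM, Esrrb at P1 was 0.0287, Pparg at P3 0.13, and with TSA Ppard -0.0452 and Esrrg -0.0499. With size factors, TSA gave -0.0126 for Ppard and -0.0181 for Esrrg. Without both libraries numbered 3, TSA gave -0.36 for Ppara, -0.0246 for Ppard and 0.00797 for Nrf1. With a library left out, Pparg ranged from -0.95 to 0.30 at P1, -0.72 to 0.53 at P3, -1.10 to 0.16 at P7 and -0.32 to 0.0202 between P7 and P1, where Nrf1 ranged from -0.0804 to 0.17. At P1, Esrrb ranged from -0.40 to 0.18 and Esrrg from -0.64 to 0.000304. With TSA, Ppard ranged from -0.0224 to 0.0942, Esrrg from -0.0466 to 0.13, Ppara from -0.14 to 0.39 and Ppargc1b from -0.23 to 0.0640.

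With the replicate number as a block, 1 PPAR target was called with TSA in place of 0. In mouse, deviations of same-numbered libraries correlated from -0.096 to 0.171. With 2 libraries per time point, these values mirror those between different numbers, so whether the mouse numbers pair the libraries is not known. The block left the counts of regulators at 0, 4, 5 and 4 in mouse.

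With equal numbers of top peaks, the regulators with a promoter peak in both libraries of a time point were 3 for P1, 3 for P3 and 4 for P7. The shares of tested genes were 31.5%, 37.3% and 45.2%. With these peaks 1 regulator had one in all 8, beside 22.5% of tested genes. With the upper part of each list by score the counts were 3 at E18.5, 2 at P1 and 1 in all 8. The share of all tested genes was not computed for that setting, so these counts cannot be read as low or high.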
